A study of Mus musculus with 132 samples.

Results

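The mid-diaphysis and the proximal diaphysis are neighbouring pieces of the cortical shaft of the tibia, and they were compared here within the control limb of each mouse. The members are the 44 libraries whose titles name a control limb and either piece, 22 of the proximal diaphysis and 22 of the mid-diaphysis. The other 88 libraries of the series come from the metaphyseal cortex of both limbs and from the loaded tibia. Each proximal library was paired with the mid library of the same mouse, which gave 22 pairs. The data are 3′ mRNA sequencing libraries from flash-frozen, pulverised cortical bone, with values given as normalized counts. All mice were female C57Bl/6J aged 10 weeks, and the control limb was the one opposite a left tibia that received cyclic compression with a peak of 9 N at 4 Hz for 1200 cycles a day. The mice fell into 5 groups. The limbs of 5 mice were taken 1 h after a single bout, those of 4 mice 3 h after and those of 4 mice 24 h after. Daily bouts over 7 days, with death 24 h after the final one, were given to 4 mice (7d). The remaining 5 mice had 5 daily bouts and were killed on day 8 (5d). Every control limb therefore came from an animal whose other tibia had been loaded, and no animal without loading was analysed here.

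Cortical bone holds osteocytes inside the mineral and osteoblasts and osteoclasts on its surfaces, and its outer surface is covered by the periosteum, a fibrous sheet with a layer of progenitor cells. Fibrous tissue is built of fibrillar collagens together with fibril-associated collagens and small leucine-rich proteoglycans, which bind collagen fibrils and shape their assembly. Tendons and ligaments insert into the periosteum and the cortex, and marrow, blood vessels and muscle lie against the bone. A pulverised piece holds RNA of all the cells that remained on it, so fewer cells of a type and less RNA per cell cannot be told apart.

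A total of 25 genes of 12224 tested were called between the segments (0.205%), and all 25 rose in the proximal diaphysis. Called means an adjusted p under 0.05 in limma, fitted on log2(normalized count + 1) with the mouse as a block and adjusted by the Benjamini-Hochberg method. No gene was called lower in the proximal diaphysis, while 702 genes were higher and 402 lower at an unadjusted p under 0.05. Of these 25 genes, 9 belonged to a list of periosteum and fibrous matrix genes and 4 to a list of platelet genes. The median log2 difference of all genes tested was 0.0042, and 50.4% of them had a positive difference.

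The promoters of Lrrc15, Fmod and Col16a1 are shown because these 3 genes were called in every alternative fit that was run. Lrrc15 encodes a leucine-rich repeat membrane protein found on subsets of fibroblasts, Fmod encodes fibromodulin, a small proteoglycan of collagen fibrils, and Col16a1 encodes a fibril-associated collagen. In GENCODE the genes lie at chr16:30269302-30283256 on the minus strand, chr1:134037254-134048277 on the plus strand and chr4:130047840-130099283 on the plus strand of GRCm38. The 250 bases before each RefSeq start (GRCm38.p6) are shown here, written 5′ to 3′ on the strand of the gene. They span chr16:30283255-30283504, chr1:134037004-134037253 and chr4:130047590-130047839. Capitals mark matches to the E-box CANNTG, the CCAAT box (ATTGG on the other strand) and the AP-1 site TGANTCA, searched on both strands. No match overlapped another.
Lrrc15: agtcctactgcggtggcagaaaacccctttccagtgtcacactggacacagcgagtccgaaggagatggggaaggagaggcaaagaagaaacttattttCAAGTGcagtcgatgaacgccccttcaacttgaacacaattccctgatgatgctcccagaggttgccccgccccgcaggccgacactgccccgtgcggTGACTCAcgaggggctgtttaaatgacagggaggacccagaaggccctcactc
Fmod: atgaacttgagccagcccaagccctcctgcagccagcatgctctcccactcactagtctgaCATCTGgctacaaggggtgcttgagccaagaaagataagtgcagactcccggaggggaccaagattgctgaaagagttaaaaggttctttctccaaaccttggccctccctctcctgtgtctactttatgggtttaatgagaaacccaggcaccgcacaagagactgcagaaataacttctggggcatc
Col16a1: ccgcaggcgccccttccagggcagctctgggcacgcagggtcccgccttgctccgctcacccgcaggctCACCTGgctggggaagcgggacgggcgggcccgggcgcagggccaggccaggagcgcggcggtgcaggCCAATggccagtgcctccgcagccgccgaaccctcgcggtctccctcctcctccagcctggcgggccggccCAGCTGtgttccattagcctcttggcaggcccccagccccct
The E-box was present once in the Lrrc15 and Fmod stretches and at 2 places in that of Col16a1, and Lrrc15 also held 1 AP-1 match and Col16a1 1 CCAAT match. Over 27025 promoters of this length, 66% held an E-box, 34.5% a CCAAT box and 6.87% an AP-1 match. Of the 11 risen genes named by rule, 10 had a promoter in the table, and 8, 4 and 1 of these held the 3 motifs. These matches are letters in a window and were not tested for binding.

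Depth ranged from 363663 to 4099072 reads per library in the proximal diaphysis (median 1771820) and from 542106 to 4228070 in the mid-diaphysis (median 2227480). The proximal libraries detected 7929 to 14126 genes (median 13213) and the mid libraries 9736 to 14016 (median 12395). Rn45s, the ribosomal RNA precursor, took 0.136% to 39.3% of reads in the proximal libraries (median 4.74%) and 0.391% to 59.5% in the mid libraries (median 12.97%). Col1a1, the main collagen chain of bone, took 2.59% to 36.4% and 0.276% to 28.8%, so both pieces carried bone matrix RNA, though some mid libraries held little. In 5 mice 1 library of the pair stood apart, with fewer than 10000 genes detected or, in 1 mid library, Msln (mesothelin, a mesothelial protein) at 100 normalized counts or more, where it stood at 491. Results are given with all 22 mice and with the 17 mice left when these 5 are set aside. The 17 still include mouse 1h 5, whose mid library was within both limits. Col1a1 took 0.316% of reads in that library and 9.94% in its proximal pair. Its shares of erythroid and platelet genes, 0.815% and 0.421%, were the highest of the control mid libraries.

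The membrane protein gene Lrrc15 was higher in the proximal diaphysis in 22 of 22 mice. Its normalized count ran from 13.8 through a median of 93.3 to 319 in the proximal diaphysis and from 0.897 through 14.4 to 76.1 in the mid-diaphysis. No mid library reached the proximal median, but the ranges overlapped. The log2 difference was 2.71 ± 0.32 (SE, n = 22 mice), a 6.54-fold higher level, with a limma adjusted p of 6.17e-06. With 17 mice it was 2.49 ± 0.33, higher in 17 of 17 (adjusted p = 0.000366).

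Fmod stood at 34.0 to 630.0 in the proximal diaphysis (median 305) and at 0.631 to 284 in the mid-diaphysis (median 50.1). It was higher in 20 of 22 mice, and no mid library reached the proximal median. Its log2 difference was 2.54 ± 0.36 (limma adjusted p = 0.00017), and 2.63 ± 0.39 with 17 mice (adjusted p = 0.00139). Asporin (Aspn), another small leucine-rich proteoglycan of the same family, ran from 20.3 through 167 to 1346 in the proximal and from 0 through 46.1 to 708 in the mid-diaphysis. It was listed at 0 in 3 mid libraries, and 3 mid libraries lay above the proximal median. Its log2 difference of 2.90 ± 0.44 was the widest among the called genes, in 19 of 22 mice (limma adjusted p = 0.000387), and it was 2.42 ± 0.48 with 17 mice (adjusted p = 0.0259).

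**Figure D1:**
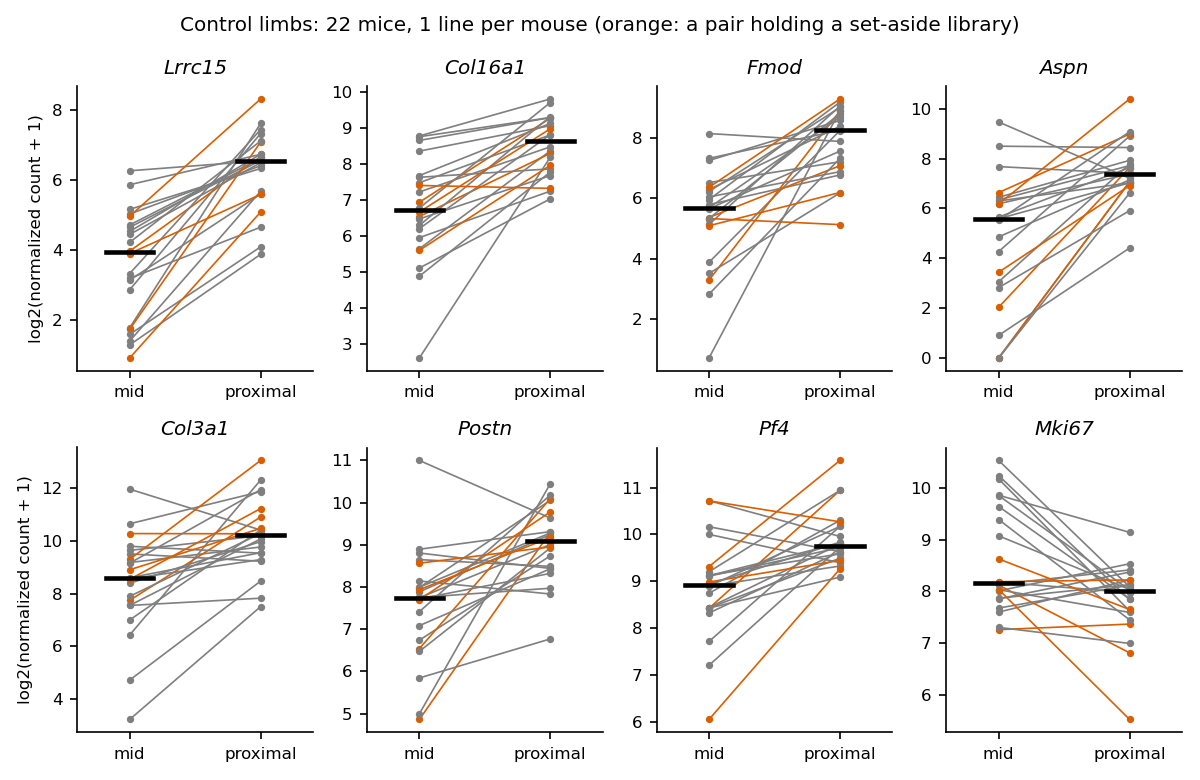
Levels of 8 genes, log2(normalized count + 1), in the mid and proximal diaphysis of the control limb, with 1 line per mouse (22 mice) and a black bar at the median. Orange lines are the 5 mice with a library set aside. Lrrc15 rises along every line, Col16a1 along 21 of 22 and Fmod along 20 of 22, while the lines of Mki67, a gene of dividing cells, fall in 14 mice and rise in 8.

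Among collagens, Col16a1 ran from 129.9 through 403 to 900.3 in the proximal and from 5.05 through 104.6 to 439.9 in the mid-diaphysis. It was higher in 21 of 22 mice, and 3 mid libraries lay above the proximal median. The log2 difference was 1.83 ± 0.24 with all mice (limma adjusted p = 5.99e-05) and 1.85 ± 0.27 with 17 mice, higher in 17 of 17 (adjusted p = 0.00139). Col3a1, which encodes the type III collagen of soft connective tissue, ran from 181 through 1193 to 8355 against 8.45 through 381 to 3939. It was higher in 18 of 22 mice by 1.81 ± 0.32 on the log2 scale (limma adjusted p = 0.00394), and by 1.69 ± 0.37 with 17 mice (adjusted p = 0.0458). Col6a3, a chain of the microfibrillar type VI collagen, had medians of 619.8 and 275 and a log2 difference of 1.24 ± 0.25 (adjusted p = 0.0193), and Col8a2, a chain of the network-forming type VIII collagen, had medians of 48.6 and 18.3 and a difference of 1.66 ± 0.35 (adjusted p = 0.0235). With 17 mice neither passed, at adjusted p values of 0.112 and 0.0521. The bone collagen genes had smaller values that were not called. Col1a1 differed by 0.79 ± 0.31 (adjusted p = 0.385) and Col1a2 by 0.57 ± 0.32 (adjusted p = 0.618).

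Of 25 collagen genes tested, 4 were called higher and 24 were positive (median 0.68). The small leucine-rich proteoglycans gave 2 called of 13, all 13 positive, with a median of 0.88. Lumican (Lum) just missed the threshold at 1.10 ± 0.26 (limma adjusted p = 0.0505), decorin (Dcn) was at 0.64 ± 0.22 (adjusted p = 0.321) and biglycan (Bgn) at 0.29 ± 0.20 (adjusted p = 0.722). Within the family the difference thus ran from 0.29 for Bgn to 2.90 for Aspn. Of 24 genes that fold, cleave and crosslink collagen none was called, with 22 positive and a median of 0.40. The widest of these was the lysyl oxidase gene Loxl2 at 1.36 ± 0.35 (adjusted p = 0.0909).

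The list of periosteum and fibrous matrix genes held 9 of the 25 calls. All 40 of its genes were tested, 38 had a positive difference, none was called lower, and the median was 0.80. Besides Lrrc15, Aspn, Col16a1, Col3a1 and Col6a3, these were Dkk3, Thbs2, Tnn and Postn. Dkk3, a secreted and divergent member of the dickkopf family, ran from 32.3 through 109.3 to 446 in the proximal and from 9.47 through 40.3 to 136 in the mid-diaphysis. Its log2 difference was 1.41 ± 0.24 in 20 of 22 mice (limma adjusted p = 0.00343) and 1.05 ± 0.22 with 17 mice (adjusted p = 0.0341). It was the only called gene of the 12 tested in the list of secreted Wnt antagonists. Thrombospondin 2 (Thbs2), a glycoprotein that binds matrix and cells, had medians of 129.2 and 29.2, and it rose by 2.30 ± 0.43 in 20 of 22 mice (adjusted p = 0.00934). With 17 mice its difference was 1.53 ± 0.38 and missed the threshold (adjusted p = 0.0926). Tenascin-N (Tnn), a matrix glycoprotein of bone and periosteum, had medians of 191 and 54.9 and a difference of 1.83 ± 0.37 (adjusted p = 0.0193, and 0.0453 with 17 mice). Periostin (Postn), which is named for the periosteum, had medians of 545 and 214 and a difference of 1.44 ± 0.29 in 18 of 22 mice (adjusted p = 0.0193, and 0.112 with 17 mice).

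Of 15 tendon and ligament genes tested, 2 were called, all 15 were positive and the median was 0.93. The called genes were Fmod and Cilp2. Cilp2, of the cartilage intermediate layer protein family, ran from 11.96 through 108.9 to 258 in the proximal and from 0 through 19.9 to 267 in the mid-diaphysis. The highest value of all was a mid library, yet 20 of 22 mice were higher proximally, by 2.48 ± 0.43 (limma adjusted p = 0.00375) and by 2.57 ± 0.45 with 17 mice (adjusted p = 0.0103). Thbs4, a tendon thrombospondin, differed by 1.92 ± 0.56 and was not called (adjusted p = 0.171). No gene of this list was at 0 in all 44 libraries, and their summed level was higher proximally in 12 of 22 mice, with ranges of 879.5 to 18392 and 128 to 19629. How much tendon or ligament was attached to each piece was not tested.

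The remaining genes named by rule were Angptl2, Gpx3 and Ramp3. Angptl2 encodes a secreted angiopoietin-like protein, had medians of 124.7 and 35.5 and rose by 1.45 ± 0.29 in 19 of 22 mice (limma adjusted p = 0.0193, and 0.0157 with 17 mice). Gpx3, the secreted glutathione peroxidase, had medians of 1123 and 643 and rose by 1.02 ± 0.21 in 18 of 22 mice (adjusted p = 0.0205, and 0.0369 with 17 mice). Ramp3 encodes a partner protein of the calcitonin receptor-like receptor, was low, with medians of 21.3 and 5.88, and rose by 1.64 ± 0.34 in 20 of 22 mice (adjusted p = 0.0193, and 0.0266 with 17 mice). Bdh2, Fndc1, Spock1 and Edil3 completed the called genes and were picked out after their values were seen. None of these 4 passed with 17 mice, at adjusted p values from 0.0629 to 0.125, and Spock1 was at 0 in 16 of the 22 mid libraries.

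**Figure D2:**
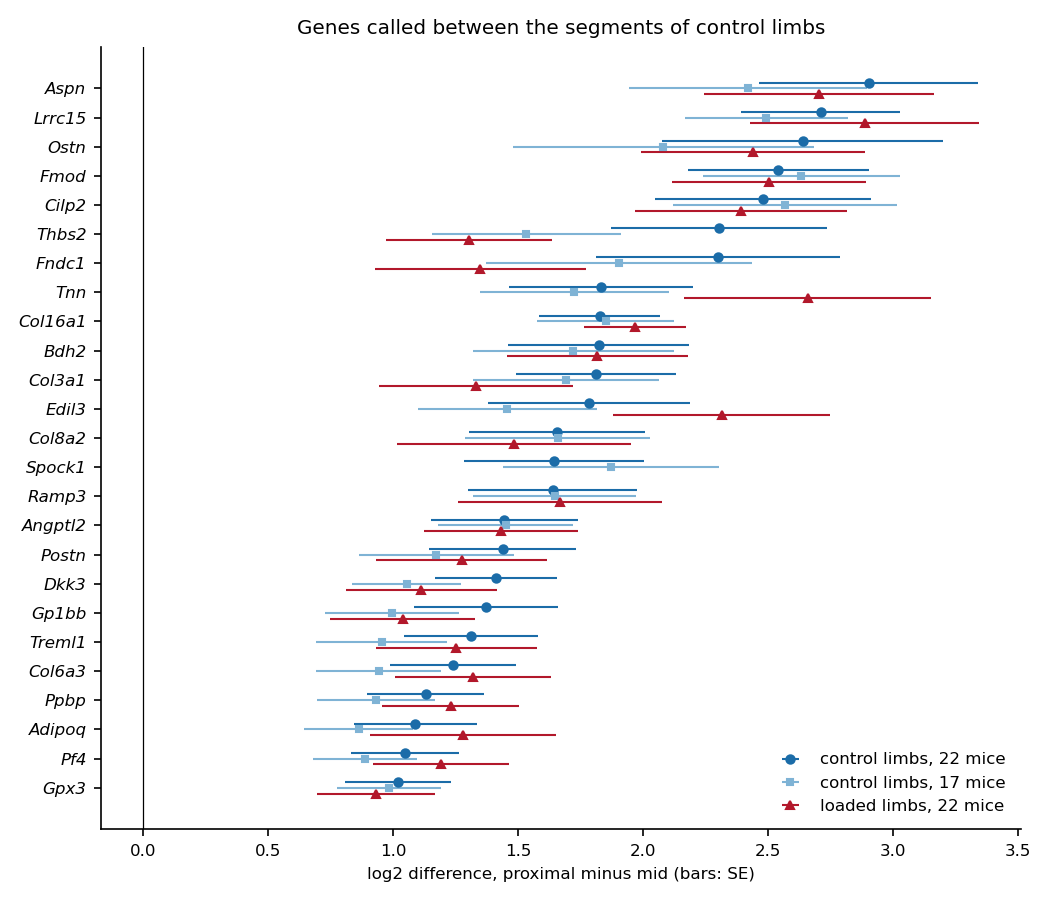
Log2 difference, proximal minus mid, with its SE for the 25 called genes in control limbs (22 mice, circles), control limbs of the 17 mice left after setting 5 aside (squares) and loaded limbs (22 mice, triangles). Every point plotted lies above 0, and Spock1, which was not tested in loaded limbs, has no triangle.

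Among the osteoblast, osteocyte and osteoclast lists 1 gene passed the test. None of 23 osteoblast genes was called, 22 were positive and the median was 0.53. Osteocalcin (Bglap), the hormone and matrix protein of mature osteoblasts, had medians of 5851 and 4148 and a difference of 0.96 ± 0.35 (limma adjusted p = 0.357), and bone sialoprotein (Ibsp) differed by 0.14 ± 0.25 (adjusted p = 0.918). Of 18 osteocyte genes 1 was called, 14 were positive and the median was 0.31. The osteocyte gene sclerostin (Sost), a Wnt antagonist, ran the other way in 15 of 22 mice, from 54.4 through 246 to 989 in the proximal and from 14.5 through 486 to 1609 in the mid-diaphysis. Its log2 difference was -0.34 ± 0.36 and was not called (adjusted p = 0.842). Dmp1 and Mepe, matrix proteins of osteocytes, differed by 0.16 ± 0.40 and 0.39 ± 0.31 (adjusted p = 0.943 and 0.758).

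The called gene of the osteocyte list was Ostn, which encodes the secreted peptide osteocrin of cells of the osteoblast lineage. It ran from 0 through 26.5 to 114.7 in the proximal and from 0 through 0.387 to 85.3 in the mid-diaphysis. In 11 mid libraries and 1 proximal library it was listed at 0, and 4 mid libraries lay above the proximal median. The difference was 2.64 ± 0.56 in 17 of 22 mice (limma adjusted p = 0.0235) and 2.08 ± 0.60 with 17 mice, where it was not called (adjusted p = 0.142). None of 21 osteoclast genes was called, with 20 positive and a median of 0.57. Acp5, the tartrate-resistant phosphatase of osteoclasts, had medians of 2109 and 1228 and a difference of 0.91 ± 0.24 (adjusted p = 0.107), and the protease gene Ctsk differed by 0.92 ± 0.28 (adjusted p = 0.216). The collagenase Mmp13 stood near the threshold at 1.04 ± 0.24 (adjusted p = 0.0528).

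The 4 platelet genes of the 25 rose, and all 19 tested genes of the megakaryocyte and platelet list were positive, with a median of 1.03. Platelet factor 4 (Pf4), a chemokine of platelet granules, ran from 544 through 867 to 3055 in the proximal and from 65.6 through 483 to 1685 in the mid-diaphysis. It was higher in 18 of 22 mice by 1.05 ± 0.22 (limma adjusted p = 0.0193). Ppbp, another platelet chemokine, rose by 1.13 ± 0.23 (adjusted p = 0.0199), the granule receptor Treml1 by 1.31 ± 0.27 (adjusted p = 0.0193) and Gp1bb, a subunit of the receptor for von Willebrand factor, by 1.37 ± 0.29 (adjusted p = 0.0209). With 17 mice no gene of this list was called, the median was 0.85, and these 4 genes had differences of 0.89 to 1.00 with adjusted p values of 0.0699 to 0.118. The summed level of the list was 2109 to 6631 in the proximal and 318 to 6038 in the mid libraries, higher proximally in 19 of 22 mice, and no member was at 0 in all 44 libraries.

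Among vessel and stroma genes 1 passed the test. Of 17 endothelial genes none was called, 15 were positive and the median was 0.58, with endoglin (Eng) at 1.28 ± 0.32 (limma adjusted p = 0.0799). Of 13 adipocyte and marrow stroma genes 1 was called, the adipocyte hormone adiponectin (Adipoq). It had medians of 246 and 146 and rose by 1.09 ± 0.25 in 17 of 22 mice (adjusted p = 0.0462), and by 0.86 ± 0.22 with 17 mice, where it was not called (adjusted p = 0.104).

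Genes of tissues that touch the bone were checked as well. All 22 skeletal muscle genes stood on the proximal side (median 0.62), but none was called, and their summed level was higher proximally in only 12 of 22 mice. That sum ran from 1763 to 44627 in the proximal and from 196 to 368810 in the mid libraries. The mid maximum was the library of mouse 3h 4, and without it the highest mid sum was 50041. The muscle actin gene Acta1 differed by 1.02 ± 0.49 (limma adjusted p = 0.534). Of 9 growth plate cartilage genes tested none was called and 8 were positive, with Col2a1, the cartilage collagen, at 0.22 ± 0.31 (adjusted p = 0.886). The part of muscle and cartilage RNA in the differences above was not tested by separating tissues, and with muscle and erythroid scores as covariates 19 genes were called, 17 of them among the 25.

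**Figure D3:**
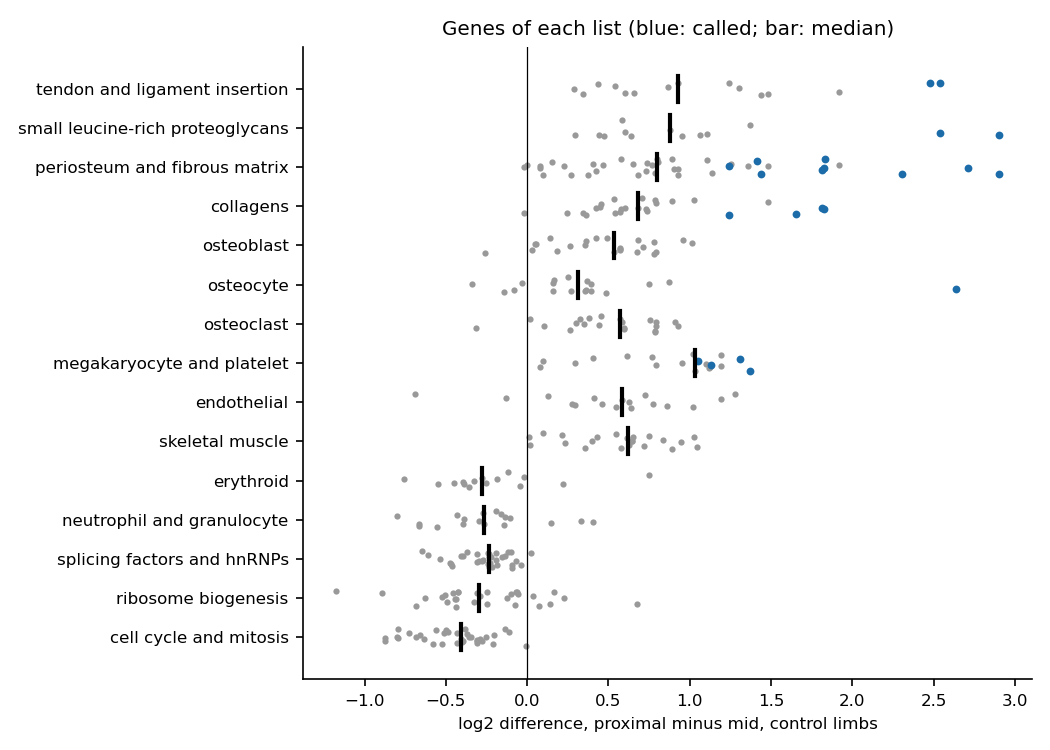
Log2 difference, proximal minus mid, of each tested gene in 15 lists (points), with called genes in blue and a bar at each list's median. The fibrous matrix, proteoglycan, tendon and platelet lists lie furthest to the right, with medians of 0.80, 0.88, 0.93 and 1.03, and the cell cycle list lies to the left of 0, with a median of -0.40.

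Lists of cell division, ribosome assembly and splicing leaned toward the mid-diaphysis, and no gene of theirs passed the test. All 35 cell cycle and mitosis genes stood on the mid side, at a median of -0.40, and 14 were lower at an unadjusted p under 0.05. Their summed level was higher in the mid-diaphysis in 19 of 22 mice, with medians of 3305 in the proximal and 4282 in the mid libraries. Mki67, the proliferation marker, ran from 45.01 through 255 to 564 in the proximal and from 152 through 285 to 1481 in the mid-diaphysis, a difference of -0.80 ± 0.22 (limma adjusted p = 0.131). The ranges overlapped, and 8 of 22 mice were higher proximally.

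Of 30 ribosome biogenesis genes 24 were negative (median -0.30), and of 35 genes of splicing factors and hnRNPs 34 were negative (median -0.24). With 17 mice these medians were -0.17 and -0.23. Nop58, a protein of small nucleolar ribonucleoproteins, had medians of 145 and 216 and was lower in 19 of 22 mice by a log2 difference of -0.68 ± 0.17 (limma adjusted p = 0.0799). Hnrnpd, an RNA-binding protein that acts on mRNA turnover, had medians of 108.4 and 192 and was lower in 20 of 22 mice at -0.65 ± 0.17 (adjusted p = 0.107). Nop56, the partner of Nop58, was lower in 20 of 22 mice at -1.17 ± 0.34 (adjusted p = 0.165), and at -0.53 ± 0.21 with 17 mice (adjusted p = 0.299). The neutrophil list leaned the same way, with 15 of 18 genes negative and a median of -0.27, and its collagenase Mmp8 was lower in 21 of 22 mice at -0.66 ± 0.21 (adjusted p = 0.231). Erythroid genes were negative in 13 of 15 cases (median -0.28). With 17 mice the neutrophil and erythroid medians were -0.38 and -0.37. In loaded limbs the neutrophil and erythroid lists had positive medians, 0.28 and 0.37. The median of all genes tested was also higher there, at 0.157 against 0.0042 in control limbs. The cell cycle, ribosome biogenesis and splicing lists stayed negative there, at -0.28, -0.16 and -0.14. Rn45s took a larger share of reads in the mid libraries, as given above. In a fit with the log2 level of Rn45s as a covariate, added after seeing the data, 135 genes were called, 128 higher and 7 lower, and the median of all genes moved to 0.253.

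Setting aside the 5 mice left the count near the same but not the genes. With 17 mice 26 genes of 11939 were called (0.218%), 24 of them higher (0.201%) and 2 lower (0.0168%) in the proximal diaphysis, and 11 were among the 25. All 25 kept a positive difference, between 0.86 and 2.63. The 2 lower genes were Igsf6 and Rab5a, picked out because only 2 genes fell. Igsf6, an immunoglobulin superfamily gene, differed by -1.19 ± 0.20 with 17 mice (limma adjusted p = 0.00901) and by -0.85 ± 0.26 with 22 (adjusted p = 0.208). Rab5a, an endosomal GTPase gene, was near the detection floor, with medians of 1.63 and 8.65 and a difference of -1.91 ± 0.40 with 17 mice (adjusted p = 0.0347).

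The segment difference was also compared between the 5 groups of mice. An F test of the segment effect by group called no gene of 12224 (0%), with a lowest limma adjusted p of 0.159 and 855 genes at an unadjusted p under 0.05. edgeR on the recovered reads also called none, whereas the limma F test on the 17 mice called 24 genes, none of them among the 25. Of the 25 called genes 20 had a positive mean difference in every group. In the limma F test with all mice, 10 of the 25 were at an unadjusted p under 0.05. None of the 25 passed after adjustment (lowest adjusted p = 0.306), so an even difference across the groups is not shown for them either. Lrrc15 had mean differences of 4.00, 2.17, 1.00, 3.23 and 2.70 in the 1h, 3h, 24h, 5d and 7d groups, and Col16a1 2.45, 1.81, 0.91, 2.44 and 1.20. Aspn had 4.69, 3.08, -0.11, 2.13 and 4.46, and Col3a1 2.84, 2.63, -0.08, 1.00 and 2.61. The 24h group had the lowest mean of each of these 4 genes, and Aspn and Col3a1 were near 0 there, although no difference between groups passed the test (adjusted p from 0.306 to 0.804). Pf4 had 0.72, 1.28, 1.398, 1.04 and 0.89, with no such dip.

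**Figure D4:**
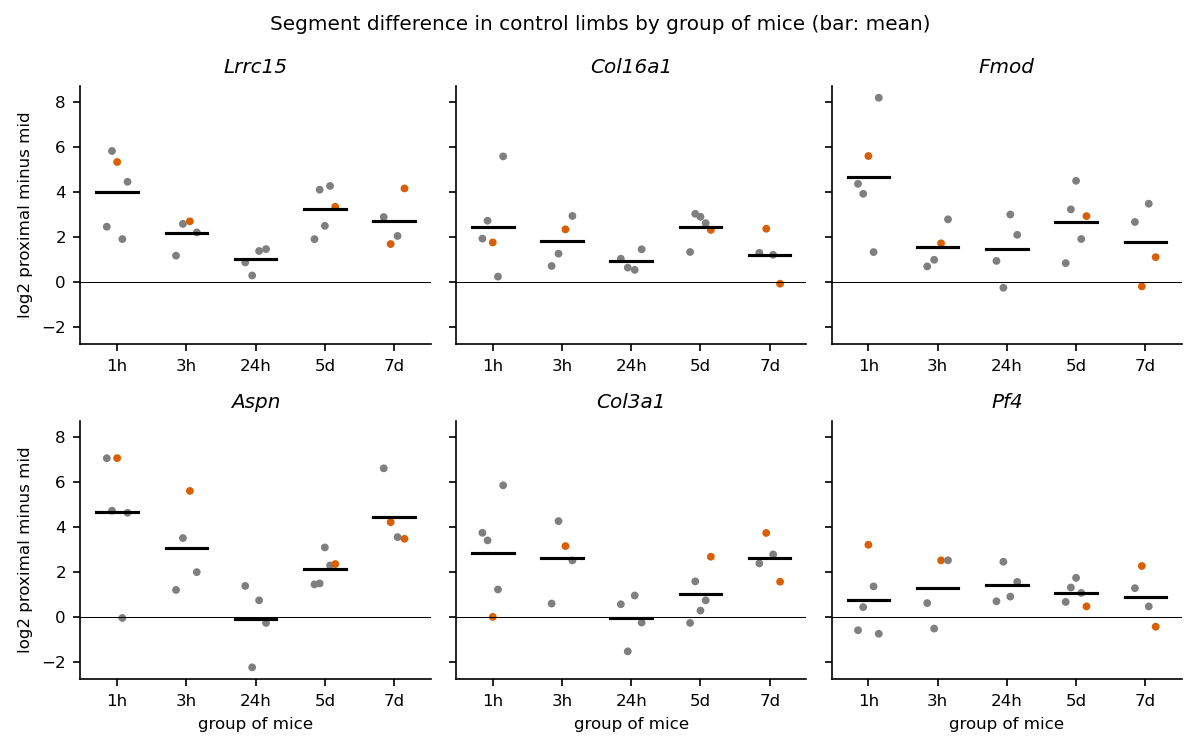
Log2 difference, proximal minus mid, in each control limb for 6 genes by group of mice, with a bar at the mean of 4 or 5 mice and orange points for mice with a library set aside. The means of Aspn and Col3a1 lie at -0.11 and -0.08 in the 24h group and at 2.61 or more in the 1h, 3h and 7d groups for both.

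By mouse, the number of the 25 genes that were higher proximally ran from 14 to 25. It was 25 in mice 1h 2, 3h 4 and 7d 3 and lowest in mouse 24h 2, and the median difference over the 25 genes was positive in all 22 mice. That median was largest, at 3.96, in mouse 1h 5, whose mid library held little Col1a1. Since these genes were chosen on the same pairs, these values describe the spread between mice and support nothing further.

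The metaphyseal cortex, the third piece of the same control limbs, lay between the other two for most called genes. Its median was below the proximal median in 17 of 25 genes, above it in 8 and below the mid median in 0. Lrrc15 had a metaphyseal median of 33.2, against 93.3 and 14.4, and was lower than the proximal piece in 20 of 22 mice. Aspn had 67.4 against 167 and 46.1, and Postn 237 against 545 and 214, so these matrix genes had their highest median in the proximal diaphysis. Col16a1 had 455 against 403 and 104.6, and Ramp3 47.6 against 21.3 and 5.88. The platelet genes also continued upward, with Treml1 at 305 against 205 and 79.4, and Pf4 at 947 against 867 and 483. Adiponectin was at 367 against 246 and 146, and these orders are descriptions with no test.

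**Figure D5:**
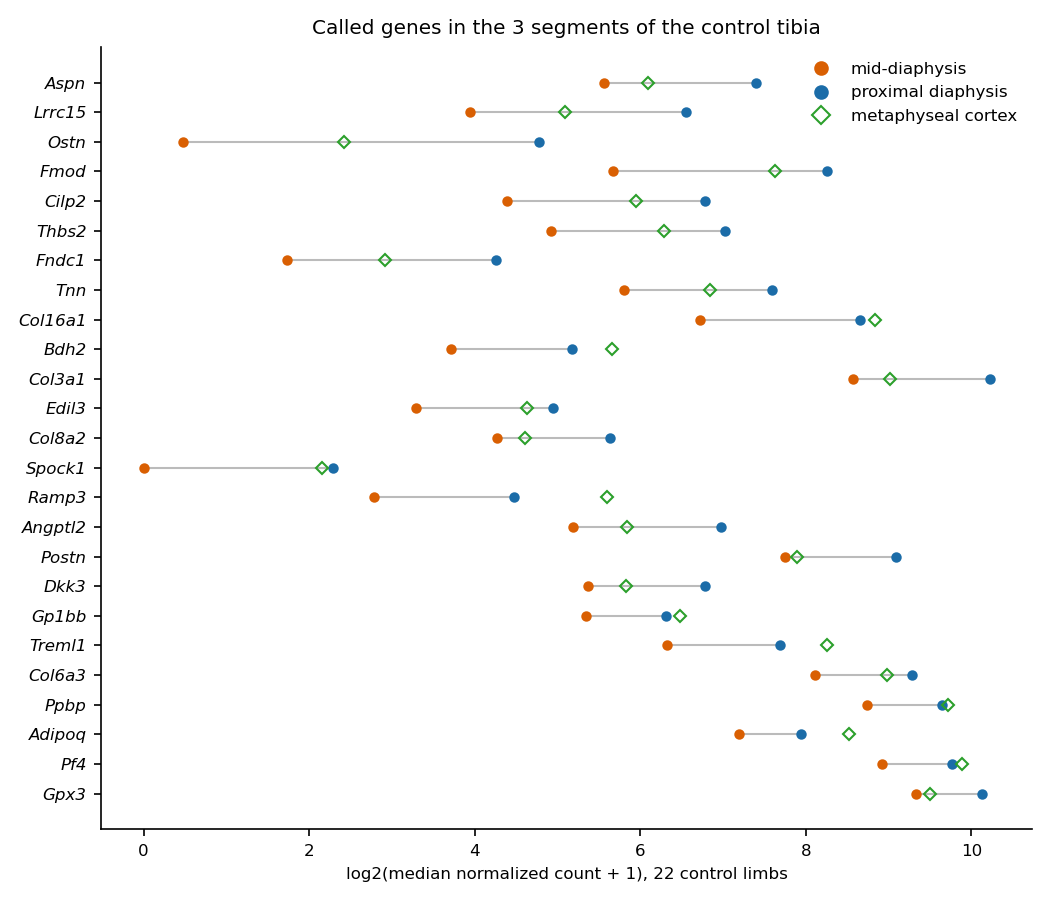
Median level, log2(median normalized count + 1), of the 25 called genes in the mid-diaphysis, proximal diaphysis and metaphyseal cortex of 22 control limbs, in order of the segment difference. The green diamond of the metaphyseal cortex lies left of the blue proximal point in 17 genes and right of it in 8.

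The loaded limbs of the same mice gave the same measure in libraries that the choice of genes did not use. There 183 genes of 12309 were called (1.49%), 181 of them higher (1.47%) and 2 lower (0.0162%) in the proximal diaphysis. The median log2 difference of all genes tested was 0.157 in loaded limbs, against 0.0042 in control limbs. Of the 25 control genes 24 were tested, all 24 were higher proximally, and 18 were called. These 18 were 72% of the control calls and 9.84% of the loaded calls. In loaded limbs Col16a1 had medians of 260.1 and 76.3 and a difference of 1.97 ± 0.20 in 21 of 22 mice (limma adjusted p = 4.72e-07). Lrrc15 had medians of 26.5 and 4.97 and a difference of 2.89 ± 0.46 in 20 of 22 mice (adjusted p = 0.000695), Fmod 2.502 ± 0.39 (adjusted p = 0.000573) and Aspn 2.70 ± 0.46 (adjusted p = 0.00187). Col3a1, at 1.33 ± 0.39, was not called there (adjusted p = 0.0776). With the 5 mice set aside that held a loaded library standing apart in the same way, 54 genes were called (0.451%), 52 of them higher (0.434%) and 2 lower (0.0167%). How many of the 25 control genes were among these 54 is not given here.

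Loaded limbs also called genes that control limbs did not. Of 17 endothelial genes 12 were called, with a median of 1.33, and of 19 platelet genes 8, with a median of 1.19. The adhesion gene Esam of endothelial cells and platelets had a difference of 1.70 ± 0.25 in loaded limbs (limma adjusted p = 0.000202) and 0.62 ± 0.20 in control limbs (adjusted p = 0.244). A test of the segment effect by limb over all 88 libraries called 0 of 12990 genes (0%), with 503 at an unadjusted p under 0.05. edgeR on the recovered reads called none either. Its lowest limma adjusted p was 0.347, for Slc6a13, a GABA transporter gene with low values, whose medians were 2.67 and 4.60 in control and 5.77 and 0 in loaded limbs. For Esam the difference between limbs, control minus loaded, was -1.08 with an unadjusted p of 0.0012 and a limma adjusted p of 0.989, so the counts of the limbs are not shown to differ gene by gene. None of the 25 genes was past an unadjusted p of 0.05 in that test.

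The calls differed in how they stood up to leaving out 1 mouse at a time. Of the 25, 19 were called in all 22 such fits. Adipoq was lost in 14 of them, Edil3 in 15, Spock1 in 13, Ostn in 7, Fndc1 in 5 and Col8a2 in 3, with highest limma adjusted p values between 0.0638 and 0.0909. On the recovered reads DESeq2 called 24 of the 25 and limma-voom 14, each with other genes besides, and edgeR called 9 of the 25 and no other gene. In edgeR Lrrc15 had an adjusted p of 9.35e-06, Col16a1 0.00015, Fmod 0.000748 and Aspn 0.00465, while Pf4 had 0.0561 and Postn 0.0575.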

How the data were processed

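Messenger RNA 3′ ends were sequenced from 3 cortical pieces of both tibiae of 22 mice. The authors deposited 1 table of normalized counts (a signal with no fixed total) for 23412 genes in 132 libraries. The submitters' processing notes name FastQC, STAR, DESeq2 and the mm10 build, while the read counter and the annotation are not given in the sources used here. Each library's values were whole multiples of 1 read within 0.02 reads (100%), which gave the recovered reads. The symbols of 27 genes appear as dates.

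Genes with a value of 10 or more in at least 4 libraries were fitted with limma 3.58.1 (R 4.3.3) on log2(normalized count + 1), with the mouse as a block and Benjamini-Hochberg adjustment at 0.05. Fold changes are on that scale, which understates low genes. Pairs come from the labels, which give both pieces of 1 mouse the same number. The correlation of paired deviations ran from -0.11 to 0.239 (median 0.0505). The p-values measure the spread between mice. edgeR 4.0.16 and DESeq2 1.42.0 were run on the recovered reads as alternatives. The fit was also run on simulated reads. These held no differences between mice or in tissue make-up, so that run cannot speak for such differences. The genes named by rule were the 20 largest rises and falls among called genes with a mean of at least 20 and the same sign in at least 18 mice, also called without the set-aside libraries, plus a panel of bone genes and up to 6 list members of smallest p. The members and lists were chosen with earlier results of these data known.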

Additional observations from a re-analysis of the deposited data

Results flagged for a closer look

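Single mice stood apart from the rest of their group for 4 called genes. The log2 difference, proximal minus mid, of Angptl2 was 3.56 in mouse 2 of the 5d group, while the other mice of that group lay between -0.04 and 0.97. For Cilp2 it was 3.78 in mouse 4 of the 24h group, against 0.62 to 0.89 in the others. For Adipoq it was 4.54 in mouse 3 of the 1h group, whose mid library was set aside, against -0.86 to 0.69 in the others. For Ramp3 it was 0.51 in mouse 3 of the 24h group, below the others, which began at 1.34. For normally spread values chance would give such a mouse in about 5% of groups, or 6.25 of those looked at (25 genes in 5 groups). Such a mouse was found in 4 groups. The 25 genes share the same mice and were chosen on these differences. The 2 counts therefore cannot tell whether these values arose by chance.

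The segment difference of 24 genes differed between the 5 groups in the limma F test when 5 mice were set aside, and that of 0 genes with all 22 mice. Col11a2, a fibrillar collagen gene of cartilage, had mean differences of 3.504, 0.39, -1.35, -0.76 and 1.05 in the 1h, 3h, 24h, 5d and 7d groups (limma adjusted p = 0.0451). It was picked out after its values were seen, and only 2 mice remained in the 7d group.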

How the results depend on the processing

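Against 25 genes called in control limbs, a pseudocount of 5 gave 39, no filter on low values 10, limma-voom 15 and edgeR 9, or 6 when 5 mice were set aside. Without the block by mouse the pairing was lost and 16 were called. DESeq2 called about 1.3e+02 (84% higher, 20 lower), a single fit of all libraries 267 (194 higher, 73 lower), array weights 89 (79 higher, 10 lower), the number of genes detected as a covariate 67 (41 higher, 26 lower) and the Rn45s level as a covariate 135 (94.8% higher). The last and edgeR with mice set aside were chosen after seeing the data. Leaving out 1 mouse gave 20 to 36. For the difference between groups of mice, 0 became 1 with the detected-genes covariate and 24 with mice set aside, and leaving out 1 mouse gave 0 to 6 (6 without mouse 4 and 3 without mouse 2 of the 1h group, 2 without mouse 2 of the 3h group, 1 without mouse 3 of the 5d or mouse 2 of the 7d group). In loaded limbs 183 became 32 with a filter at a mean of 50, 37 in edgeR, 95 with muscle and erythroid covariates, 541 (67.5% higher) with the detected-genes covariate and 54 with mice set aside, and leaving out 1 mouse gave 99 to 223. The lowest, 99, came without mouse 5 of the 5d group, and mouse 4 of that group and mouse 2 of the 1h group also moved the count by over 1.5 times. The limb interaction gave 0 in every alternative run. The causes of these changes were not tested. Over the named genes, 3081 values kept direction and side of the threshold, 186 newly passed it, 170 lost it and 0 reversed. Depth covers counting error only, and low genes such as Spock1 and Rab5a rest on few reads.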
